A study of Mus musculus with 7 samples.

Results

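The receptor family for interleukin 1 (IL-1), IL-18 and IL-33 was examined in regulatory T cells. Both alleles of Id2 and Id3, which encode transcriptional inhibitors, were targeted for deletion in the knockout cells. The 8 genes were picked by gene symbol as members of the family. They were Il1r1, Il1r2, Il1rl1, Il18r1, Il1rap, Il18rap, Sigirr and Myd88, and all 8 were found among the 39179 genes of the authors' deposited table. Messenger RNA was sequenced from CD4+ TCRb+ CD25hi Foxp3+ cells sorted from lymph nodes of C57BL/6 mice aged 3 weeks. The numbered libraries comprised 3 from double-knockout mice (dKO; genotype Id2fl/fl Id3fl/fl Foxp3cre) and 2 from control mice (Id2fl/+ Id3fl/+ Foxp3cre). Both genotypes carried the Cre recombinase, which is expressed from Foxp3 and therefore acts in Foxp3-expressing cells. The control cells carried 1 floxed allele of each gene, which was exposed to Cre as well. The contrast is thus of both alleles exposed against 1. A further pair, without replicate numbers, had 1 library with a dKO title and 1 with a control title. The genotype tags of that pair are the reverse of its titles, so its members are called the library labelled dKO and the library labelled control.

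IL-1, IL-18 and IL-33 are cytokines that each bind a primary receptor chain, which then recruits a second, accessory chain. The intracellular TIR domains of the paired chains recruit the adaptor MyD88, and IRAK kinases and the ubiquitin ligase TRAF6 carry the signal to NF-kappaB. IL-33 and IL-18 act on regulatory T cells of tissues, and the IL-33 receptor ST2, encoded by Il1rl1, marks many effector regulatory T cells. Type II IL-1 receptor, encoded by Il1r2, binds IL-1 but has no TIR domain and serves as a decoy. Id2 and Id3 bind E proteins and keep them from E-box DNA, the letters CANNTG.

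Coding lengths in GENCODE M21 showed the decoy's shorter reading frame, with 410 codons for Il1r2 against 573 and 576 for the Il1r1 transcripts. Il1rl1 has a membrane form of 567 codons and a soluble form, sST2, of 337 codons, which share their first 985 coding bases. The stretch where these forms part is shown because it separates a receptor that can signal from a soluble decoy for IL-33. Coding bases 955 to 1014 on chromosome 1 (GRCm38, transcript strand) are printed 5′ to 3′, with the bases after the point of departure in capitals and the stop codon of the soluble form at the end of its line.
Il1rl1 membrane form: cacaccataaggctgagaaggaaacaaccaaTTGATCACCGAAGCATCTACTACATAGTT
Il1rl1 soluble form: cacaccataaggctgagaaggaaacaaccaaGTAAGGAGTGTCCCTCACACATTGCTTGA

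Upstream sequence is shown for the 5 members of the chromosome 1 cluster, because Id proteins act on factors that bind E-boxes and these genes included all members past the test threshold below. The sequences are from RefSeq (GRCm38.p6), all on the plus strand, 5′ to 3′, and cover those of the 250 bases before an annotated start that lie in no GENCODE exon. Capitals mark every CANNTG, a motif that reads the same on both strands. Printed stretches are chr1:40085852-40085984 for Il1r2, chr1:40224830-40225079 for Il1r1, chr1:40429320-40429569 for Il1rl1, chr1:40465416-40465551 for Il18r1 and chr1:40515112-40515361 for Il18rap.
Il1r2: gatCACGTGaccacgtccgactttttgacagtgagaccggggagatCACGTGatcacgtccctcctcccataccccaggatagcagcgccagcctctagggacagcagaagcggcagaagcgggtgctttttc
Il1r1: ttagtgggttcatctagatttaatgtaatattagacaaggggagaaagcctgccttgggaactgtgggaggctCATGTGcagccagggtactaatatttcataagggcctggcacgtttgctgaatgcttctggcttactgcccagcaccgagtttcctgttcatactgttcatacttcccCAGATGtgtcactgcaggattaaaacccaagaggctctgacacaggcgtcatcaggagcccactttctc
Il1rl1: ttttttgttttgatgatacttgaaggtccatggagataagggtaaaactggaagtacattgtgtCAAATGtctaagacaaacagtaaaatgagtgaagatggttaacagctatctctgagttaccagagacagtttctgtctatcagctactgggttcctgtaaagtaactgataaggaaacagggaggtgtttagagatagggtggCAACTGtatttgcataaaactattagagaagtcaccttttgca
Il18r1: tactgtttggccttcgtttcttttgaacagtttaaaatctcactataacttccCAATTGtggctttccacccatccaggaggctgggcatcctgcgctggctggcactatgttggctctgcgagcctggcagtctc
Il18rap: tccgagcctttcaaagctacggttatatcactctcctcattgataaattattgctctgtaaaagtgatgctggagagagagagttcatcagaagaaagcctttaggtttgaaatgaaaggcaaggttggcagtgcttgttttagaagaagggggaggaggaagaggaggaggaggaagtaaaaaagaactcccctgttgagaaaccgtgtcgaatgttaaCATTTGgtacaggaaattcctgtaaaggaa

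A CANNTG was present in the 250 bases before 66.2% of 32851 RefSeq starts, so its presence upstream of these genes was common. The Il1r2 stretch held the hexamer CACGTG at 2 places, positions -238 and -195 relative to the RefSeq start, which lies within the gene as the authors' table draws it. That hexamer occurred in 6.02% of all windows. CAGCTG, present in 13.0% of windows, was found before no start of these 5 genes, and CACCTG or CAGGTG, present in 17.2%, was found once, before the third RefSeq start of Il18r1. The members for which no upstream sequence is printed were Il1rap, whose window held no CANNTG, Myd88, whose window held 2, and Sigirr. A match, CACGTG included, is a description of letters and does not show binding by E proteins or by any other factor.

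Abundances of the numbered libraries are group means, made by the authors after each library's counts were scaled by its size factor. They are here called scaled counts and carry no SD. Their sums were 3.995e+07 in dKO and 3.895e+07 in control. A gene was called when its adjusted p in the authors' deposited table was under 0.05. The labels do not say whether each library came from a separate mouse, so these p-values measure the spread between libraries, which in dKO may be technical. Where a mean was low, the whole-number counts of each library were recovered from it and are called reads. They are counts as the authors' tools assigned them to genes. The control library with the larger size factor held 601 reads of Kdm5d and Uty, which are Y-linked, against 15 in the other. The control libraries thus did not hold the same mix of animals, and they are called Y-high and Y-low below. The mean over dKO was 2.56 scaled counts for Kdm5d and 17.8 for Uty, against 112 and 128 over control. No dKO library can have reached the Y-high control library in either gene, so Y-linked content was unbalanced between the genotypes. For Il1r2, Il1rl1, Il18r1, Sigirr and Myd88 no control library was recovered. Any part of that imbalance in their differences cannot be told apart from genotype. In bulk sorted cells, fewer cells of a type and less RNA per cell cannot be told apart.

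The targeted genes were examined first. In the authors' deposited table Id2 had 61.1 scaled counts in dKO and 783 in control (adjusted p 1.48e-08), and Id3 had 891 in dKO and 1376 in control (adjusted p 0.209). The sources used here do not give the floxed exons, and transcripts that lack them would still be counted. The sorted cells carried the transcripts of their gate, with Foxp3 at 10942 scaled counts in dKO and 13481 in control and Il2ra, which encodes CD25, at 32126 in dKO and 32376 in control in the authors' deposited table.

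Of the 8 receptor family genes, the decoy receptor gene Il1r2 rose in dKO, the signalling receptor genes Il1r1 and Il1rl1 fell, and 5 did not pass. Across all genes tested, 6.56% were called, 3.38% higher and 3.18% lower in dKO. That base includes scarce genes, while all 8 members averaged 10 or more scaled counts. Adjusted over genes at that level (15437 with a finite ratio), 2505 were called. The median log2 fold change of the 8 genes was -0.89, against -0.02 over the genes with a p and a finite ratio, with 6 of the 8 below 0. The IL-18 receptor genes Il18r1 and Il18rap had lower means in dKO that did not pass, and Il1rap, Sigirr and Myd88 differed by less than 0.25 on the log2 scale.

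**Figure D1:**
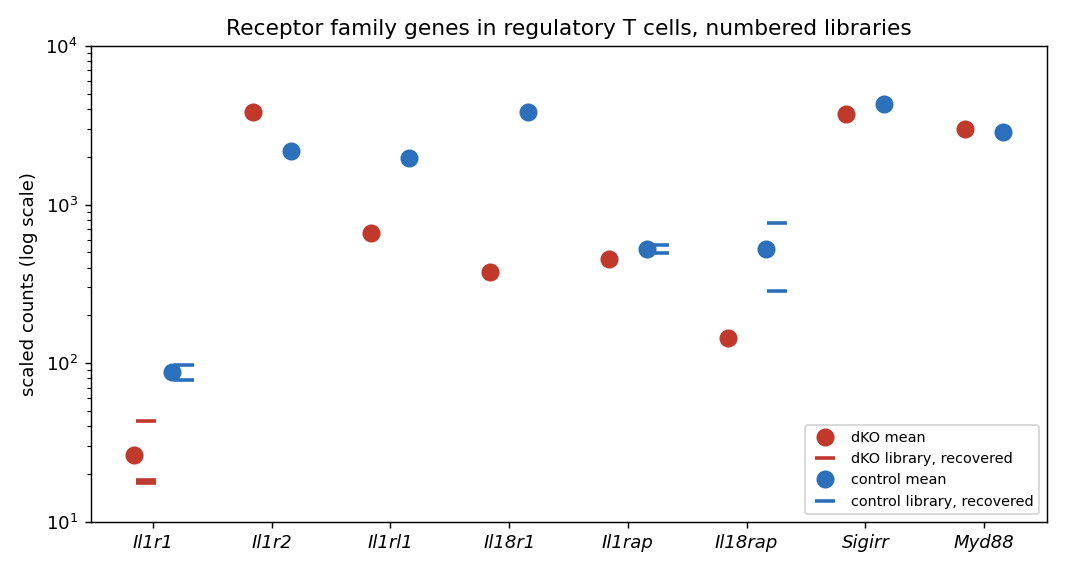
Scaled counts (log axis) of the 8 receptor family genes in the numbered libraries. Circles are the authors' group means, over 3 dKO libraries on the left of each pair and 2 control libraries on the right, and dashes are single libraries where their reads could be recovered. Il1r2 is the gene called higher in dKO (3820 against 2162), and the 3 dKO libraries of Il1r1 lie below both control libraries.

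Among the primary receptors, Il1r1, whose product signals for IL-1, was scarce in both groups. Its mean was 26.2 scaled counts in dKO and 87.8 in control in the authors' deposited table. The reads behind these means were recovered for every library, 17, 39 and 15 reads in dKO and 101 and 106 in control. After scaling, the dKO libraries had 18.3, 42.8 and 17.4 and the control libraries 78.5 (Y-high) and 97.0 (Y-low). All 3 dKO libraries lay below both control libraries, and 1 dKO library had more than the other two combined. How many of all genes have dKO and control libraries set apart like this was not counted. For Il1r1 the authors' deposited table gives a log2 fold change of -1.74 (adjusted p 0.0001). The value ranged between -2.30 and -1.52 with each library left out in turn, the largest size arising without the dKO library at 42.8. Without the Y-high control library it was -1.89.

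Il1r2, the decoy receptor for IL-1, moved the other way. In the authors' deposited table it had 3820 scaled counts in dKO and 2162 in control, a log2 fold change of 0.82 (adjusted p 7.06e-05) and a ratio of 1.77. The only gene that overlaps Il1r2 in the table, Gm16894 on the opposite strand, had 44.6 scaled counts in dKO and 45.9 in control, far below the Il1r2 values. Per kilobase of exon, the Il1r2 mean was 551 times that of Il1r1 in dKO and 93.1 times in control.

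Il1rl1, which encodes ST2, fell to 658 scaled counts in dKO, against 1957 in control, in the authors' deposited table. The control mean was 2.97 times the dKO mean, which is -1.57 on the log2 scale (adjusted p 0.0125). No dKO library can have held more than 1973 scaled counts, the sum over the 3, but the split between libraries could not be recovered at this level in either group.

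Il18r1, the primary chain of the IL-18 receptor, had the largest log2 difference of the 8 genes and was not called. Its mean was 373 scaled counts in dKO and 3819 in control in the authors' deposited table, so the control mean was 10.2 times as high. The log2 fold change was -3.36, the unadjusted p 0.0162 and the adjusted p 0.170, all from the authors' deposited table. A dKO library can have held at most 1119 scaled counts, the sum over the 3, and at least 1 control library held 3819 or more. The value of the other control library could not be recovered, and whether it lay above those of dKO is not known from these files. Genes with this size of difference were mostly called: of 63 genes with a log2 difference of 3 or more in size and 100 or more scaled counts in the higher group, 49 passed and 14 did not.

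Both accessory chains had lower means in dKO and neither passed. Il1rap encodes the chain shared by the receptors for IL-1 and IL-33. It had 455 scaled counts in dKO and 524 in control in the authors' deposited table, a log2 fold change of -0.20 (adjusted p 0.840). Its control libraries were close together, at 554 (Y-high) and 493 (Y-low) scaled counts. Il1rap overlaps Gm20319, which is on the opposite strand and had 1.51 scaled counts in dKO and 4.23 in control.

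In the authors' deposited table Il18rap, the accessory chain for IL-18, had 144 scaled counts in dKO and 523 in control (log2 -1.86, unadjusted p 0.0389, adjusted p 0.311). The control mean combined unequal libraries, with 366 reads or 285 scaled counts in the Y-high library and 831 reads or 761 scaled counts in the Y-low library. The dKO mean was below both. Against the Y-low library alone the log2 fold change was -2.41, and against the Y-high library alone it was -0.99. The part of the difference in Y-linked reads in this gap was not tested, since each kind of control library was present once.

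The inhibitory receptor gene Sigirr and the adaptor gene Myd88 differed little. Sigirr encodes a single-immunoglobulin receptor that dampens IL-1 family signals. It had 3740 scaled counts in dKO and 4286 in control in the authors' deposited table, a log2 fold change of -0.20 (adjusted p 0.821). Myd88 had 2987 scaled counts in dKO and 2874 in control there, a log2 fold change of 0.06 (adjusted p 1). Myd88 overlaps Acaa1a on the opposite strand, at 3300 scaled counts in dKO and 3198 in control, and Slc22a14 on its own strand. The sources used here do not say whether counting separated strands.

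Levels of different genes were compared per kilobase of exon. In dKO the order was Il1r2 (2857 scaled counts per kilobase), Sigirr (1879), Myd88 (1160), Il1rl1 (95.4), Il18r1 (78.5), Il1rap (40.1), Il18rap (21.3) and Il1r1 (5.18). In control it was Sigirr (2154), Il1r2 (1617), Myd88 (1116), Il18r1 (804), Il1rl1 (284), Il18rap (77.4), Il1rap (46.1) and Il1r1 (17.4). Il1r2 thus stood above Sigirr in dKO and below it in control, and Il18r1 stood below Il1rl1 in dKO and above it in control. Most of these means carry no spread, so most neighbours could not be compared against one. In control, where single libraries were recovered for the lowest 3, Il1rap had 48.8 (Y-high) and 43.4 (Y-low) scaled counts per kilobase, above Il1r1 with 15.5 and 19.2 in the same order. The Il18rap libraries, at 42.1 and 113, overlapped those of Il1rap.

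Of the 8 genes, 5 lie in a single cluster on chromosome 1, together with Il1rl2, which encodes the IL-36 receptor. These 6 genes lie on the plus strand over 466.9 kb, in the order Il1r2, Il1r1, Il1rl2, Il1rl1, Il18r1, Il18rap. Il1r2 (40084768 to 40125219, GRCm38) is at the upstream end, 99860 bases before Il1r1 (40225080 to 40316198). Il1rl1 (40429570 to 40465415) and Il18r1 (40465552 to 40500854) are separated by 136 bases, and the part of the Il18r1 sequence printed above is this whole gap. Il18rap (40515362 to 40551705) begins 14507 bases after Il18r1 ends.

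Log2 fold changes were not alike along the cluster. Il1r2 alone was higher in dKO, and the 5 genes downstream of it all had lower means there, of which Il1r1 and Il1rl1 passed. In the authors' deposited table Il1rl2 had 26.2 scaled counts in dKO and 49.6 in control (log2 -0.92, adjusted p 0.456), and its control libraries had 34.2 (Y-high) and 65.0 (Y-low). The flanking genes did not pass: Map4k4, a kinase gene on the Il1r2 side, had 7735 scaled counts in dKO and 9161 in control, and Slc9a4, beyond Il18rap, had 1.47 in dKO and 1.24 in control, in the authors' deposited table. Outside the cluster, Il1rap is on chromosome 16 (26581704 to 26730117), Sigirr on chromosome 7 (141091175 to 141100546) and Myd88 on chromosome 9 (119335934 to 119341411).

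**Figure D2:**
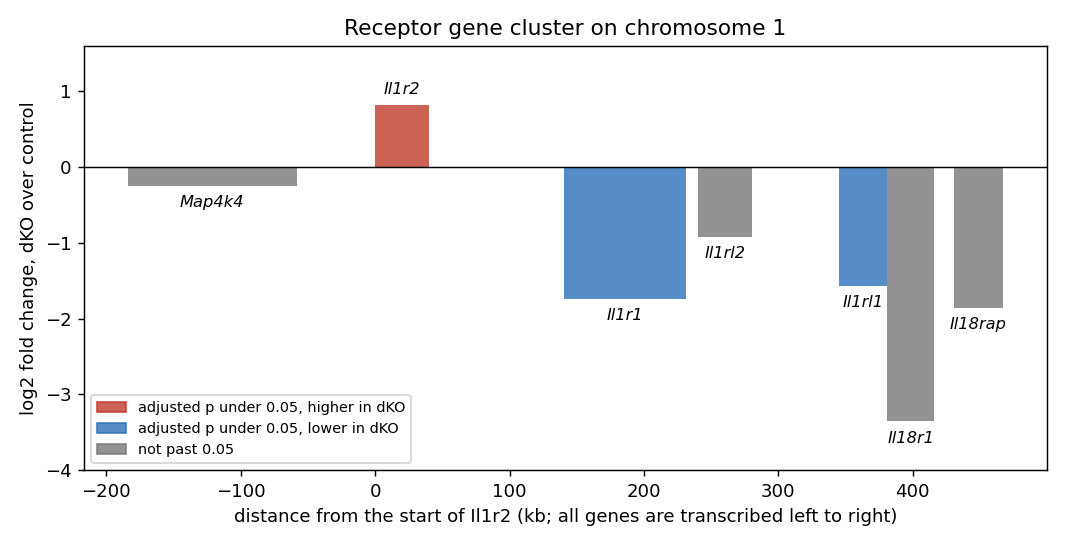
Log2 fold change, dKO over control, of the genes in the chromosome 1 cluster and of Map4k4 upstream of it, drawn to scale by distance in kb from the start of Il1r2. Bar width is the length of the gene and colour marks the authors' call. Il1r2 is above 0 and the 5 genes after it are below 0, with Il18r1 lowest at -3.36 and grey because it was not called.

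In the unnumbered pair, which shares no library with the numbered comparison, expression is given in FPKM from Cuffdiff, summed over the RefSeq transcripts of a gene. With 1 library each there is no replicate check. Id2 had 9.69 FPKM in the library labelled dKO and 18.6 FPKM in the library labelled control, and Id3 had 221 and 160 FPKM in that order. Directions below follow the titles and would turn round under the genotype tags.

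Il1r2 had 127 FPKM in the library labelled dKO and 24.2 FPKM in the library labelled control. Il18r1 had 2.37 FPKM in the library labelled dKO and 17.0 FPKM in the library labelled control. Il1rl1 had 2.82 FPKM in the library labelled dKO and 7.35 FPKM in the library labelled control. These 3 were the members with a log2 ratio of 1 or more in size, after 1 FPKM was added to each value, with ratios of 2.34, -2.42 and -1.13. Among the 10776 genes that reached 1 FPKM in either library, 6.37% had a ratio of that size, 3.12% higher and 3.25% lower in the library labelled dKO. The direction of each was that of the numbered comparison.

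The other members differed less. Il1rap had 3.61 FPKM in the library labelled dKO and 4.63 FPKM in the library labelled control. Il18rap, with a wide gap between the control libraries above, had 1.08 FPKM in the library labelled dKO and 1.67 FPKM in the library labelled control, a log2 ratio of -0.36. Sigirr had 84.8 FPKM in the library labelled dKO and 97.2 FPKM in the library labelled control, and Myd88 had 56.5 and 50.7 FPKM in that order. Il1r1 was below 1 FPKM in both, with 0.350 FPKM in the library labelled dKO and 0.464 FPKM in the library labelled control, so its fall in the numbered libraries had no informative counterpart in the pair.

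**Figure D3:**
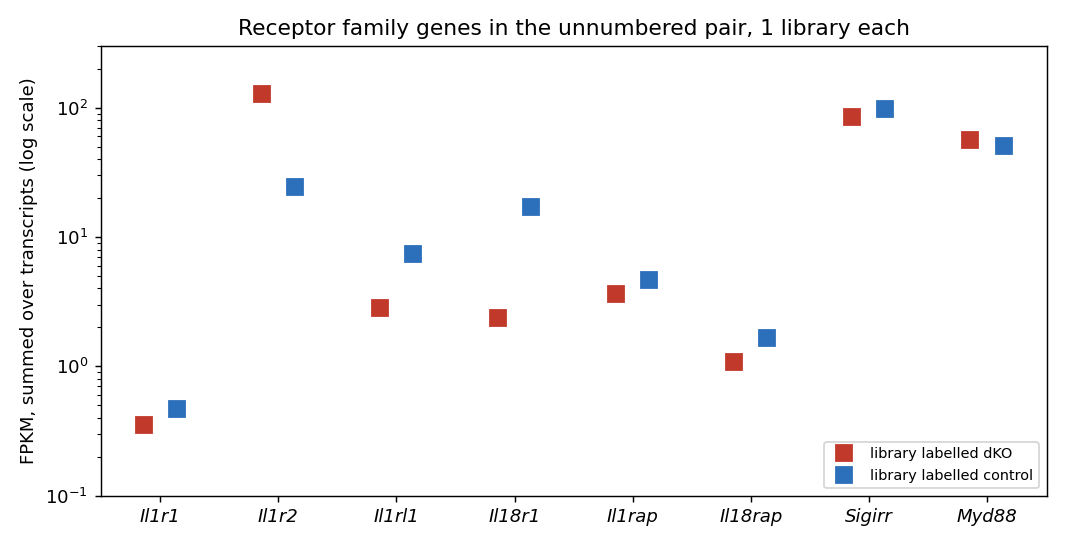
FPKM (log axis), summed over transcripts, of the 8 receptor family genes in the unnumbered pair, with the library labelled dKO on the left and the library labelled control on the right of each pair of squares. Il1r2 is higher in the library labelled dKO (127 against 24.2), and Il1rl1 and Il18r1 are lower there.

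The transcript values of the pair add the forms of each receptor. The membrane form of Il1rl1 had 2.70 FPKM in the library labelled dKO and 6.62 FPKM in the library labelled control. The soluble form had 0.125 FPKM in the library labelled dKO and 0.729 FPKM in the library labelled control, too few reads for Cuffdiff to test. The membrane form was thus the more abundant in both libraries. For Il18r1, the full-length transcript of 537 codons had 1.62 FPKM in the library labelled dKO and 13.1 FPKM in the library labelled control. A shorter Il18r1 transcript, of 372 codons, had 0.753 FPKM in the library labelled dKO and 3.86 FPKM in the library labelled control. Il1rap was mainly the form of 570 codons, at 2.77 FPKM in the library labelled dKO and 3.71 FPKM in the library labelled control, and the form of 360 codons had 0.789 and 0.885 FPKM in that order. Il1r2 was the member whose Cuffdiff q fell under 0.05 (0.0287), as did 0.174% of the 13193 transcripts tested. That test compares these libraries, not the conditions. The q of the full-length Il18r1 transcript was 0.160.

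The remaining pathway was followed in a list of 43 genes. Of these 5 rose, 2 fell and 35 did not pass, and 1 had no p. Their median log2 fold change was -0.03, with 7 calls among 42 tested genes. The 6.56% called among all genes is not a like base, since 33 of the 43 averaged 10 or more scaled counts. Adjusted over genes at that level (15437 with a finite ratio), calls numbered 2505 over all genes and 11 in the list. Whether the list holds more calls than other genes at that level was not tested. Most of the abundant core did not pass, among them Irak1 (log2 -0.06), Irak4 (0.15), Traf6 (-0.06) and Map3k7 (0.02), the kinases and ubiquitin ligase that carry the signal, as log2 fold changes from the authors' deposited table. Not all of these genes lay so near 0. In the same table Ube2n was at 0.39 (adjusted p 0.0535) and Peli1 at -0.35 (adjusted p 0.0596), just short of the threshold.

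Of 11 ligands and antagonists, 1 rose. Il1f9, which encodes IL-36 gamma, a ligand of the Il1rl2 receptor, had 169 scaled counts in dKO and 73.4 in control (log2 1.20, adjusted p 4.27e-05, authors' deposited table). Its control libraries had 86.3 (Y-high) and 60.4 (Y-low) scaled counts. The cytokine gene Il18 had 65.2 scaled counts in dKO and 34.4 in control (adjusted p 0.0770), and Il18bp, a secreted decoy for IL-18, had 219 in dKO and 137 in control (adjusted p 0.605), in the authors' deposited table. Il33 had 0.747 scaled counts in dKO and 1.30 in control and Il1b was listed at 0 in dKO and 0.389 in control there, so these sorted cells held almost no transcripts of those ligands.

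Of 21 proximal signalling genes, 3 rose, 2 fell and 16 did not pass. Tifa, an adaptor that binds TRAF6, had 95.5 scaled counts in dKO and 4.76 in control (log2 4.33, adjusted p 4.14e-08, authors' deposited table). The control value rested on 4 reads in the Y-high library and 7 in the Y-low library. Tifa overlaps Ap1ar on the opposite strand, which had 2508 scaled counts in dKO and 2053 in control. Map3k8, a kinase that links these receptors to ERK, rose by 0.71 and Irak1bp1, whose product binds IRAK1, rose by 0.75 (log2 fold changes from the authors' deposited table).

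The signalling genes that fell were Irak3 and Peli3. Irak3 encodes IRAK-M, a member of the IRAK family that inhibits signalling. The authors' deposited table gives it 34.4 scaled counts in dKO and 86.8 in control (log2 -1.33, adjusted p 0.0007), with 100.3 (Y-high) and 73.2 (Y-low) in the control libraries. It overlaps Tmbim4 on the opposite strand, at 1431 scaled counts in dKO and 1370 in control. Peli3, a ubiquitin ligase of the Pellino family that acts on IRAK proteins, had 9, 7 and 4 reads in the dKO libraries and 41 and 50 in the control libraries. After scaling the dKO libraries had 9.69, 7.69 and 4.65 and the control libraries 31.9 and 45.8 (log2 -2.40, adjusted p 0.0003 in the authors' deposited table).

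Of 5 genes for ligand processing and 3 other receptors, 0 passed. Highest among the processing genes were the inflammasome adaptor gene Pycard, with 5034 scaled counts in dKO and 5272 in control, and the pore protein gene Gsdmd, with 2737 in dKO and 2411 in control, in the authors' deposited table. Of 3 other TIR adaptors, Ticam2 rose to 340 scaled counts in dKO, against 141 in control (log2 1.27, adjusted p 1.91e-08 in the authors' deposited table). It overlaps Tmed7 on the same strand, at 3875 scaled counts in dKO and 3690 in control, so its reads may be shared with that gene.

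**Figure D4:**
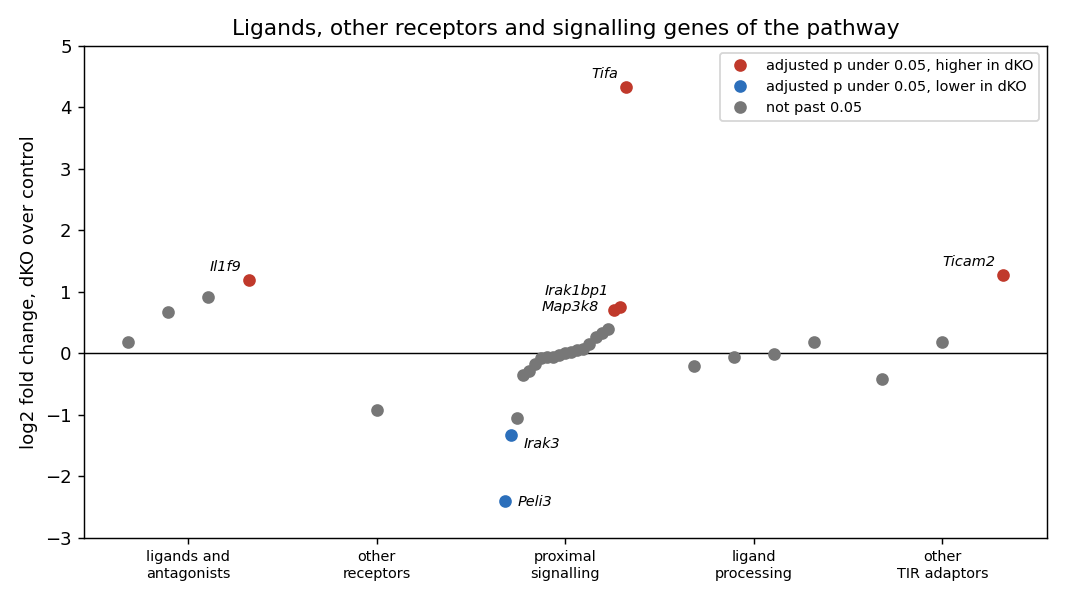
Log2 fold change, dKO over control, of the 33 pathway genes with a mean of 10 or more scaled counts, by role. Each point is 1 gene, and those past an adjusted p of 0.05 are coloured and named. Tifa is highest at 4.33 and Peli3 lowest at -2.40, and most signalling genes lie near 0.

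Several of these receptors are also known from other cells, so markers of such cells were read beside them. Of 52 markers, 51 had a p, 1 was called higher and 2 lower in dKO, beside 6.56% called among all genes. Lists of so few genes would hold few calls at that share. A list with 0 calls therefore does not show that such cells were unchanged. Of 7 regulatory T cell markers, Ctla4 rose (26706 scaled counts in dKO and 13258 in control, authors' deposited table) and 6 did not pass. Mast cells and basophils carry ST2: of 8 markers 7 had a p and 0 passed. The sum of the 8 was 86.5 scaled counts in dKO and 153 in control. Most of the sum was Kit, at 21.5 scaled counts in dKO and 111 in control (adjusted p 0.178), and Hdc, at 59.5 in dKO and 34.1 in control (adjusted p 0.195), in the authors' deposited table. The other 6 were below 5 scaled counts in both groups, with Fcer1a listed at 0 in both and Mcpt8 listed at 0 in dKO. Type 2 innate lymphoid and helper cells also carry ST2. Of their 6 markers, Hpgds fell (log2 -1.23 in the authors' deposited table) and 5 did not pass, with a sum of 5258 scaled counts in dKO and 6338 in control, most of it Gata3, which regulatory T cells express too. Those that did not pass lay on both sides in the authors' deposited table: Il17rb had 241 scaled counts in dKO and 490 in control, Il4 had 59.9 in dKO and 63.0 in control, Il13 had 19.0 in dKO and 6.77 in control, and Il5 had 4.78 in dKO and 2.15 in control.

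Natural killer cells carry the IL-18 receptor. Of 5 markers 0 passed, and their sum was 2191 scaled counts in dKO and 221 in control, nearly all of the difference from Gzma, with 2006 in dKO and 59.6 in control. Eomes had 119 scaled counts in dKO and 90.7 in control, Klrb1c had 64.7 in dKO and 69.7 in control, Ncr1 had 0.754 in dKO and 0.777 in control, and Klra8 had 0.359 in dKO and was listed at 0 in control. Neutrophils carry Il1r2: 0 of 6 markers passed, with a sum of 58.2 scaled counts in dKO and 49.0 in control. Nearly all of it was Cxcr2, at 34.5 in dKO and 36.7 in control, and Csf3r, at 21.5 in dKO and 9.17 in control (log2 1.23, unadjusted p 0.0424, adjusted p 0.331, authors' deposited table). S100a8 and S100a9 were below 1 in both groups. For monocyte, macrophage and dendritic cell markers 1 of 7 passed, Xcr1, which fell (log2 -1.82 in the authors' deposited table), with sums of 70.6 scaled counts in dKO and 102 in control. B cell markers (0 of 6 passed), stromal and endothelial markers (0 of 5) and CD8 T cell markers (0 of 2) had sums of 1077, 4542 and 714 scaled counts in dKO and 988, 4791 and 680 in control. The part of such cells in the receptor differences was not tested.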

How the data were processed

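The authors deposited, for 3 dKO and 2 control libraries, mean signal per gene (the header calls it abundance in raw counts, but the values are counts divided by size factors and averaged), the log2 ratio of these means, and raw and adjusted p-values. Tools were RSEM and DESeq on mm10 (GRCm38), per the submitters' processing notes. For the pair, the deposited FPKM, p-values and q-values came from TopHat 1.4.0 and Cuffdiff (version given as 0.0.6) on mm9, per the submitters' processing notes.

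Group means allow no fit on libraries, so the authors' p-values, adjusted over 31641 genes, stand as the test. Recomputed log2 ratios and Benjamini-Hochberg values differed from the deposited ones by at most 0.000133 and 0.00124. Size factors were fitted from the steps between low means (1.29 and 1.09 in control, 0.929, 0.910 and 0.860 in dKO). Whole reads per library were accepted where 1 combination met the mean within 7e-05 scaled counts, for control means under 700 and dKO means under 30. In simulated tables every single solution was right, and single solutions were found for 97.5% of control means between 200 and 700 and 56.8% of dKO means between 10 and 30. Control libraries were on average 1.32 times deeper, and recovered reads carry counting error. Of 27901 transcript entries of the pair, 27196 matched a RefSeq symbol.

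Computation used Python 3.11.15, numpy 2.4.6 and pandas 2.3.3. The members, the pathway list, the markers and the rule for named genes (all members, targeted genes, called pathway genes, otherwise the 2 most abundant of a role, and the cluster's genes) were chosen with earlier results of these data known. The remaining pathway genes and the single markers were named after their values were seen. The alternatives tried were other scalings, pseudocounts, thresholds, filters and libraries left out.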

Additional observations from a re-analysis of the deposited data

How the results depend on the processing

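No paired analysis was possible because the deposited columns are means over the replicates of a group, with no value per replicate. The 3 calls among the receptor genes became 2 at an adjusted p under 0.01 (Il1rl1 was lost) and 2 without overlapping genes, where Il1r2 itself is left out, and stayed at 3 at 0.1 and when adjusted over genes averaging 10 or more scaled counts. With that filter the adjusted p of Il18r1 was 0.0840 and that of Il18rap 0.156. Calls in the pathway list numbered 11 at an adjusted p under 0.1, 11 with the same filter on low means, and 4 without overlapping genes, against 7. Calls over all genes numbered 2505 with the filter on low means and 1238 without overlapping genes, against 2075. Scaling to equal totals moved all log2 values by -0.04. In the pair, adding 5 FPKM gave -0.66 for Il1rl1 and -1.58 for Il18r1. Where reads could be recovered, leaving out 1 library of either group gave -2.30 to -1.52 for Il1r1. For 3 further genes only control libraries could be left out, so the dKO mean was not varied. That gave -2.41 to -0.99 for Il18rap, -1.31 to -0.38 for Il1rl2 and -0.28 to -0.12 for Il1rap. Counts of calls without a library could not be had from group means, and the members above the recovery limits have no value without a library.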

Other observations

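Other genes had large differences between the means without passing, as Il18r1 did. Kit, a growth factor receptor gene in the mast cell list, had a log2 fold change of -2.37 (unadjusted p 0.0173, adjusted p 0.178, authors' deposited table). Gzma, a granzyme gene, had a log2 fold change of 5.07 (unadjusted p 0.0108, adjusted p 0.126, authors' deposited table). Of 319 genes with a log2 difference of 1.5 or more in size and 100 or more scaled counts in the higher group, 265 (83.1%) passed and 54 did not. These genes were chosen after their values were seen.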
